A study of Rattus norvegicus with 12 samples.

Results

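Genes that carry muscle glycogen and glucose to lactate were followed in rat pubocaudalis, which belongs to the pelvic floor, after simulated birth injury (SBI) with and without lactation (Lac). The set was chosen by name, with earlier results of these data known. It holds 10 genes: the glucose transporter Slc2a4, the hexokinase Hk2, the glycogen phosphorylase Pygm, and the glycolytic enzymes Pfkm, Aldoa, Gapdh, Pgam2, Eno3, Pkm and Ldha. Of the 10, 9 were matched to a row among the 30206 genes of the table, and all 9 passed the filter on low counts that left 14599 genes for testing. Gapdh was not matched to a row, so that its expression was not analysed here.

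The libraries came from female Sprague-Dawley rats aged 3 months at the start, in which a balloon was distended in the vagina late in pregnancy. Every group was injured and had delivered, and no uninjured or never-pregnant muscle was analysed here. The groups labelled SBI had their pups removed after delivery, and the groups labelled SBI + Lac kept them and nursed. Muscle was taken at 1 week or 3 weeks after the injury, and the group names carry that time (1wk or 3wk). Each of the 4 groups had 3 libraries, and each library pooled the RNA of 2 rats, so that n counts pools and a p-value measures the spread between pools.

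Muscle fibers store glucose as glycogen. Glycogen phosphorylase releases glucose units from that store, glycolysis splits them to pyruvate, and lactate dehydrogenase turns pyruvate to lactate when ATP is needed faster than mitochondria supply it. Adult skeletal muscle uses muscle-specific isozymes at several of these steps, among them Pygm, Pfkm, Pgam2 and Eno3, and fast fibers hold more of most of them than slow fibers. Slc2a4 encodes GLUT4, the transporter that moves to the fiber surface after insulin or contraction.

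Total counts per library ran from 30862144 to 51662983 at 1 week and from 10082734 to 75634391 at 3 weeks. The 9 genes together took 2.43% to 3.25% of counts in 1wk SBI, 3.03% to 3.48% in 1wk SBI + Lac, 3.02% to 3.65% in 3wk SBI and 3.31% to 3.75% in 3wk SBI + Lac. Defining genes of skeletal muscle were abundant in every library: 11 myofiber reference genes summed to 63160.2 normalized CPM (counts scaled by library size and TMM factor to a common total) in the lowest library and 131002 in the highest. The libraries of a group were uneven. Replicate 3 of 1wk SBI lay with the lactating libraries for most of the 9 genes, and replicate 3 of 3wk SBI, the deepest library, was the lowest of its group for all 9 and for the myofiber reference genes. That last library also had the highest summed macrophage markers, 1062 normalized CPM against 485 and 506 in its group, and what part this had in its low enzyme levels was not tested.

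Entry of glucose was represented by Slc2a4 and Hk2. Slc2a4 stood at 244, 241 and 375 normalized CPM in 1wk SBI, at 369, 471 and 372 in 1wk SBI + Lac, at 441, 453 and 311 in 3wk SBI, and at 491, 453 and 516 in 3wk SBI + Lac. The groups overlapped at each time through replicate 3 of 1wk SBI and through replicate 2 at 3 weeks. Hk2, the hexokinase that traps glucose in insulin-sensitive muscle, stood at 61.7, 79.3 and 80.6 in 1wk SBI, at 73.8, 93.9 and 74.7 in 1wk SBI + Lac, at 84.3, 76.3 and 65.9 in 3wk SBI, and at 85.0, 71.4 and 96.5 in 3wk SBI + Lac. All 4 groups overlapped for Hk2.

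Pygm, which starts glycogen breakdown in muscle, stood at 4952, 4683 and 7634 normalized CPM in 1wk SBI and at 8435, 8872 and 7132 in 1wk SBI + Lac. At 3 weeks its levels were 8439.6, 10971 and 7224 in 3wk SBI and 11479.9, 11618 and 10187 in 3wk SBI + Lac. In each time point a single non-lactating library reached into the lactating range, replicate 3 at 1 week and replicate 2 at 3 weeks.

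Pfkm is the muscle phosphofructokinase, the main control step of glycolysis. It stood at 1506, 1458 and 2378 in 1wk SBI, at 2545, 2869.6 and 2263 in 1wk SBI + Lac, at 2693, 3205 and 2134 in 3wk SBI, and at 3542, 3302 and 3311 in 3wk SBI + Lac. Aldoa, the muscle aldolase that cleaves fructose bisphosphate, stood at 5597, 4822 and 8282 in 1wk SBI, at 9346, 10183 and 8029.9 in 1wk SBI + Lac, at 8964, 10696 and 7206 in 3wk SBI, and at 13572, 13293 and 11022 in 3wk SBI + Lac. For both genes every 3wk SBI + Lac library was above every 3wk SBI library, while replicate 3 of 1wk SBI passed the lowest 1wk SBI + Lac library.

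Pgam2, the muscle phosphoglycerate mutase, stood at 1284, 1015 and 1738 in 1wk SBI, at 1709, 2131 and 1584 in 1wk SBI + Lac, at 1789.5, 1889 and 1562 in 3wk SBI, and at 1647, 1918 and 1925 in 3wk SBI + Lac. Eno3, the muscle enolase, stood at 3899, 3042 and 5245 in 1wk SBI, at 4826, 6046 and 4527 in 1wk SBI + Lac, at 5082, 5661 and 4474 in 3wk SBI, and at 5820.1, 6112 and 6323 in 3wk SBI + Lac. At 3 weeks the Pgam2 groups overlapped and the Eno3 groups did not.

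Pkm encodes pyruvate kinase, whose muscle and proliferative isoforms come from alternative exons of this gene and are summed here. It stood at 2003, 1879 and 3100.2 in 1wk SBI, at 2574, 3470.2 and 2423 in 1wk SBI + Lac, at 2769, 3521 and 2615 in 3wk SBI, and at 3058, 3173 and 3043 in 3wk SBI + Lac. Ldha, the lactate dehydrogenase subunit that predominates in fast muscle, stood at 1922, 1608 and 2559 in 1wk SBI, at 2389, 2734 and 2431 in 1wk SBI + Lac, at 2378, 2698 and 2154 in 3wk SBI, and at 2347, 2510.2 and 2541 in 3wk SBI + Lac. Neither gene separated the groups at 1 or 3 weeks. Reads of Aldoa, Pkm and Ldha could be shared with near-identical copies elsewhere in the genome, and how the counting split them was not tested.

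**Figure D1:**
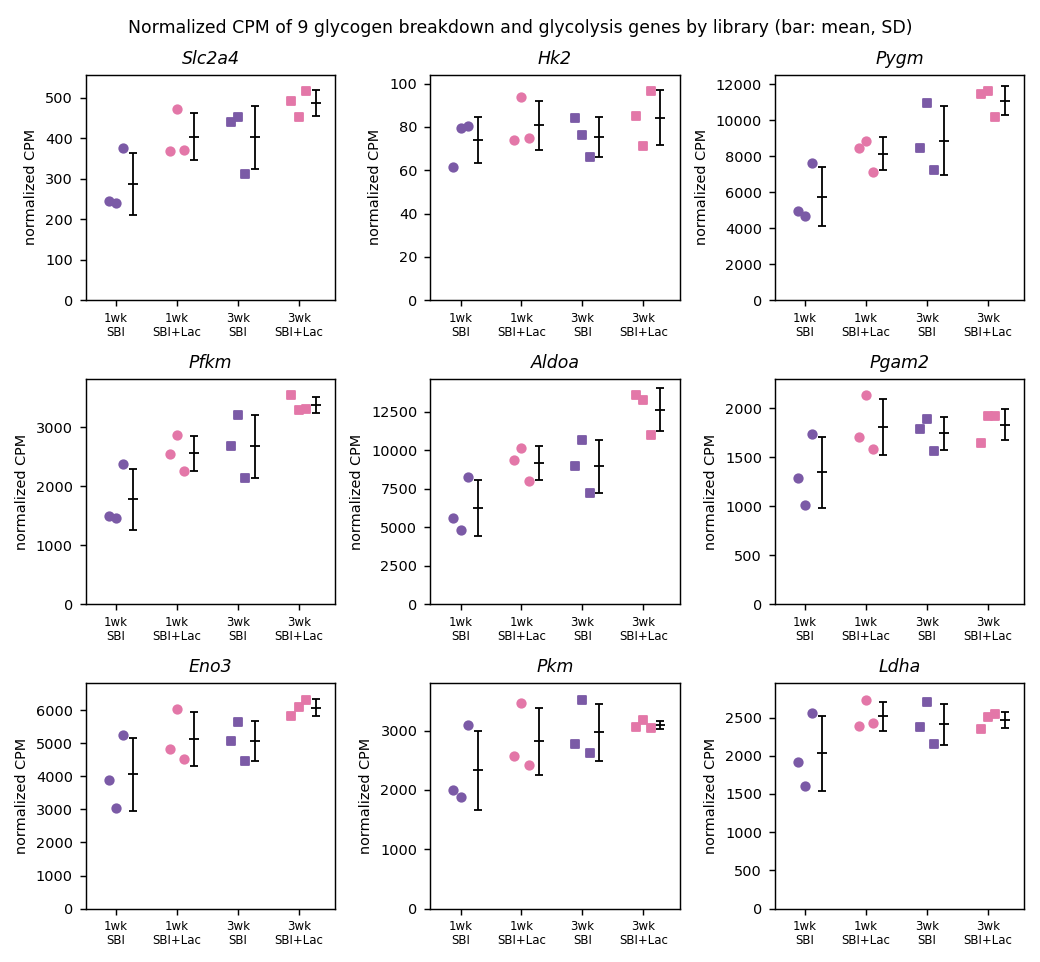
Normalized CPM (y axis, linear, from 0) of the 9 genes in the 12 libraries, by group on the x axis, with circles for 1 week, squares for 3 weeks, purple for SBI and pink for SBI + Lac; the bar beside each group is the mean with SD (n = 3 pools). Aldoa ran from 4822 in the lowest 1wk SBI library to 13572 in the highest 3wk SBI + Lac library, while Hk2 overlapped in all 4 groups.

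At 1 week the question was whether nursing went with a different level of these genes in the injured muscle. In edgeR's quasi-likelihood test with Benjamini-Hochberg adjustment over all genes, 0 of the 9 passed an adjusted p of 0.05, where 0.569% of all genes tested did. At an unadjusted p under 0.05 there were 5 of the 9, Slc2a4, Pygm, Pfkm, Aldoa and Pgam2, against 18.9% of all genes. DESeq2 on all 12 libraries called 0, where it called 5.96% of all genes. In DESeq2 6 of the 9 had an unadjusted p under 0.05. The share of all genes at that DESeq2 p was not computed, here or in the later comparisons. All 9 log2 fold changes, lactating over non-lactating, were above 0 with TMM scaling, with a median of 0.43 against -0.0038 over all genes, whereas 4 of the 9 were above 0 after scaling by the myofiber reference genes. In none of the 9 did all lactating libraries exceed all non-lactating ones, as they did in 14.3% of all genes.

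Among the 9 the largest difference at 1 week was that of Aldoa, from 6234 ± 1816 normalized CPM (SD, n = 3) in 1wk SBI to 9186 ± 1085 in 1wk SBI + Lac, a log2 fold change of 0.56 (SE 0.22, edgeR adjusted p = 0.187). Pfkm differed by 0.52 (SE 0.20, edgeR adjusted p = 0.181), from 1781 ± 518 to 2559 ± 304. For Pygm the difference was 0.50 (SE 0.22, edgeR adjusted p = 0.226), from 5756 ± 1632 to 8146 ± 905. Slc2a4 had the same size of difference, 0.50 (SE 0.19, edgeR adjusted p = 0.167). The later steps gave 0.43 for Pgam2, 0.34 for Eno3, 0.28 for Pkm and 0.31 for Ldha on the log2 scale, with edgeR adjusted p from 0.240 to 0.481, and Hk2 gave 0.13 (SE 0.14, edgeR adjusted p = 0.660). The interval of the Hk2 difference ran from -0.18 to 0.44, so that neither no difference nor one of the size seen for Pgam2 lay outside it.

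A single library decided the count at 1 week. Without replicate 3 of 1wk SBI, 5 of the 9 genes passed the adjusted threshold in edgeR, where 6.22% of all genes did against 0.569% with that library, and the median log2 fold change of the 9 was 0.65. Over the 6 fits that each left out 1 library of 1 week, Aldoa ran from 0.41 to 0.82, Pfkm from 0.40 to 0.79, Pygm from 0.37 to 0.76 and Slc2a4 from 0.37 to 0.74. Of the later steps Pgam2 ran from 0.26 to 0.65, Eno3 from 0.17 to 0.57, Pkm from 0.10 to 0.54 and Ldha from 0.17 to 0.51, and Hk2 ran from 0.010 to 0.20. DESeq2 on the 6 libraries of 1 week alone called 1 gene of the 9, Aldoa (DESeq2 adjusted p = 0.0453), where it called 9.32% of all genes.

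At 3 weeks again 0 of the 9 passed in edgeR, where 2.54% of all genes did. Aldoa alone had an unadjusted p under 0.05, against 21.1% of all genes, and DESeq2 on all 12 libraries called 0, where it called 7.78% of all genes, with 1 at an unadjusted p under 0.05. Aldoa, Pfkm and Eno3 were higher in every lactating library, as 11.9% of all genes were. All 9 log2 fold changes were above 0 with TMM scaling, with a median of 0.26 against -0.02 over all genes, but only 3 of the 9 (Pygm, Pfkm and Aldoa) were above 0 after scaling by the myofiber reference genes.

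Aldoa went from 8956 ± 1745 normalized CPM in 3wk SBI to 12629 ± 1399 in 3wk SBI + Lac (SD, n = 3), a log2 fold change of 0.50 (SE 0.22, edgeR adjusted p = 0.217). Pfkm had means of 2677 ± 536 and 3385 ± 136, with a difference of 0.34 (SE 0.20, edgeR adjusted p = 0.359), and Pygm had 8878 ± 1912 and 11095 ± 789, with 0.32 (SE 0.22, edgeR adjusted p = 0.419). The difference was 0.28 for Slc2a4, 0.26 for Eno3 and 0.16 for Hk2. It was close to 0 for Pgam2 at 0.07, Pkm at 0.06 and Ldha at 0.03, whose intervals reached from -0.34 to 0.47, from -0.38 to 0.50 and from -0.34 to 0.40, and these turned negative without replicate 3 of 3wk SBI, at -0.01, -0.02 and -0.04. With single libraries left out Aldoa ran from 0.36 to 0.65, Pfkm from 0.20 to 0.50, Pygm from 0.19 to 0.51, Slc2a4 from 0.12 to 0.38, Eno3 from 0.18 to 0.35 and Hk2 from 0.07 to 0.27. DESeq2 on the 6 libraries of 3 weeks called 1 gene of the 9, Aldoa (DESeq2 adjusted p = 0.0297), where it called 5.16% of all genes.

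**Figure D2:**
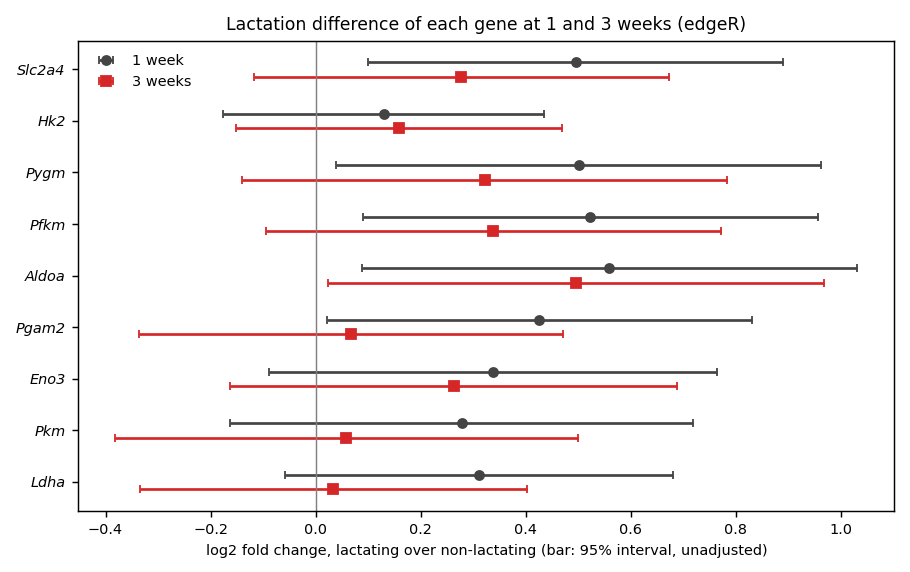
Log2 fold change, lactating over non-lactating (x axis), of each of the 9 genes (y axis) at 1 week (grey circles) and 3 weeks (red squares) with TMM scaling; bars are 95% intervals from edgeR, not adjusted for the number of genes. Points at 1 week lie between 0.13 (Hk2) and 0.56 (Aldoa) and points at 3 weeks between 0.03 (Ldha) and 0.50 (Aldoa), and most of these lie below 0 when the myofiber reference genes set the scale.

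Whether the lactation difference itself differed between 1 and 3 weeks was tested as an interaction. It passed in 0 of the 9 genes in edgeR, where 0.00685% of all genes did, and 0 of the 9 had an unadjusted p under 0.05, where 4.42% of all genes did. DESeq2 on all 12 libraries also called 0, where it called 0.075% of all genes, with 0 at an unadjusted p under 0.05. The 3-week minus 1-week difference had a median of -0.18 and was most negative for Pgam2 at -0.36 (SE 0.27, edgeR adjusted p = 0.999). For Aldoa it was -0.06 (SE 0.31), for Pygm -0.18 (SE 0.31) and for Ldha -0.28 (SE 0.24), so that the standard errors were as large as the differences or nearly so.

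The same libraries were also compared over time within each nursing state, and those comparisons share libraries with the ones above. In addition the 1-week values are whole counts and the 3-week values carry decimals, so that time and the way of counting cannot be told apart. In non-lactating rats 0 of the 9 genes passed from 1 to 3 weeks in edgeR, where 5.05% of all genes did. Slc2a4, Pygm, Pfkm and Aldoa, 4 of the 9, had an unadjusted p under 0.05, where 21.2% of all genes did, and none was higher in every 3-week library, as 10.2% of all genes were. Pygm differed by 0.63 (SE 0.22, edgeR adjusted p = 0.113) and Pfkm by 0.59 (SE 0.20, edgeR adjusted p = 0.111), and DESeq2 on all 12 libraries called these 2 genes, where it called 9.41% of all genes. The median over the 9 was 0.38 with TMM scaling and -0.07 with myofiber scaling. Without replicate 3 of 1wk SBI edgeR called 6 of the 9 with a median of 0.61, where 9.84% of all genes passed, and without replicate 3 of 3wk SBI it called 3, where 14.1% of all genes passed.

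In lactating rats 0 of the 9 passed over time in edgeR, where 2.01% of all genes did, and 0 had an unadjusted p under 0.05, where 18.1% of all genes did. DESeq2 called 0 of the 9 on all 12 libraries, where it called 6.09% of all genes. In DESeq2 3 of the 9 had an unadjusted p under 0.05, a count without a computed share of all genes beside it. On the 6 lactating libraries alone it called Pygm, Pfkm and Aldoa, where it called 10.1% of all genes. These 3 genes were higher in every 3-week library, as 13.4% of all genes were, with log2 fold changes of 0.45 for Pygm, 0.40 for Pfkm and 0.46 for Aldoa, while Pgam2 at 0.02 and Ldha at -0.03 lay near 0. The median over the 9 was 0.25 with TMM scaling and -0.08 with myofiber scaling.

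The 9 genes moved together from library to library. Over the 12 libraries, which share depth and the mix of cells between genes, Pearson's r of log2 CPM for pairs of them ran from 0.42 for Ldha with Hk2 to 0.99 for Pygm with Pfkm, with a median of 0.89. Hk2 was the loosest member, with a mean r of 0.49 with the others against at least 0.82 for each of the other 8. Their mean log2 CPM followed that of the 11 myofiber reference genes (r = 0.93 over 12 libraries) and ran against the means of the macrophage (r = -0.79), fibroblast (r = -0.83) and regenerating myofiber markers (r = -0.84). Fewer myofibers in the sampled tissue and less RNA of these genes per myofiber cannot be told apart in bulk RNA.

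**Figure D3:**
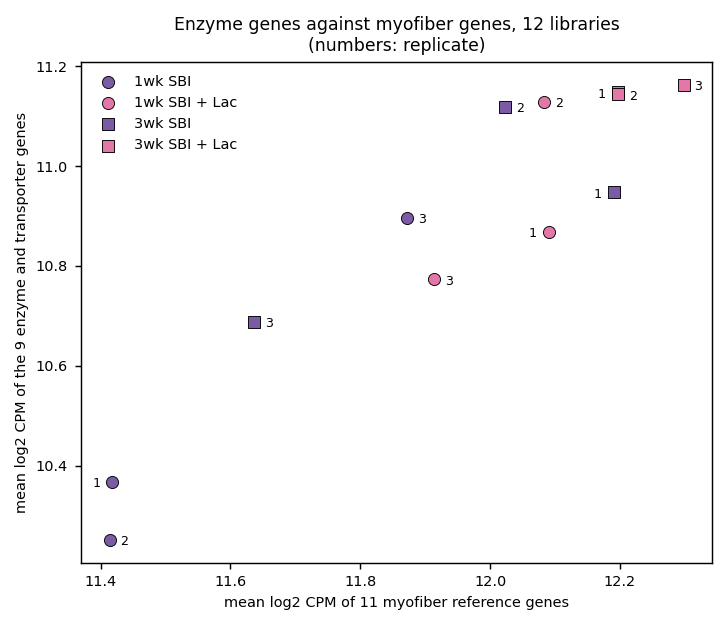
Mean log2 CPM of the 9 genes (y axis) against mean log2 CPM of 11 myofiber reference genes (x axis); each point is a library, numbered by replicate, with circles for 1 week, squares for 3 weeks, purple for SBI and pink for SBI + Lac. Replicates 1 and 2 of 1wk SBI are lowest on both axes, at 10.37 and 10.25 for the 9 genes, and the 3wk SBI + Lac libraries lie at the upper end, from 11.14 to 11.16.

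Summed markers of regenerating fibers, macrophages and fibroblasts had lower medians in the lactating than in the non-lactating libraries at both times. The 9 regenerating myofiber genes summed to between 1763 and 3688 normalized CPM in 1wk SBI and between 861 and 1289.8 in 1wk SBI + Lac, and to between 265 and 784 in 3wk SBI and between 205 and 248 in 3wk SBI + Lac. The 14 macrophage genes summed to between 651 and 732, 420.3 and 593, 485 and 1062, and 435 and 708 in the same order of groups, and none of them was at 0 in a whole group. For the 10 fibroblast genes the ranges were 7868 to 11359.9, 4689.5 to 8584, 3834 to 8708 and 2315 to 3298. In edgeR 1 of the 14 macrophage genes, Cd68, passed at 1 week (log2 fold change -0.96) and at 3 weeks (-1.08). Of the 9 regenerating and the 10 fibroblast genes 0 passed at either time, where 0.569% of all genes did at 1 week and 2.54% at 3 weeks. Medians were -1.07 and -1.13 for the regenerating genes at 1 and 3 weeks, -0.50 and -0.46 for the macrophage genes and -0.44 and -0.83 for the fibroblast genes. At 1 week 7 regenerating, 4 macrophage and 1 fibroblast genes had an unadjusted p under 0.05, where 18.9% of all genes did. At 3 weeks 3, 6 and 7 had one, where 21.1% of all genes did. The part of these cell types in the enzyme levels was not tested.

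Myofiber scaling divides by the summed counts of the 11 myofiber reference genes, so that the most abundant of them weigh most. It moved the median log2 fold change of all genes by -0.49 at 1 week and by -0.35 at 3 weeks, so that genes are read here against that shift. With TMM scaling the 11 genes themselves had medians of 0.43 at 1 week and 0.16 at 3 weeks, beside 0.43 and 0.26 for the 9. The shift at 3 weeks was larger than the change of the middle reference gene. On the scale of the summed counts the median of the 9 was -0.02 at 1 week and -0.06 at 3 weeks, and 0 of the 9 passed at either time. Aldoa kept the highest value at both times, 0.12 at 1 week and 0.19 at 3 weeks (edgeR adjusted p = 0.390 and 0.269), and Ldha was at -0.13 and -0.29.

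Within a library the share of the 9 genes was not even between groups. Relative to the mean log2 level of the 9 in the same library, Pfkm was at 0.19 to 0.32 in 1wk SBI and 0.36 to 0.44 in 1wk SBI + Lac, and at 0.37 to 0.53 in 3wk SBI and 0.53 to 0.64 in 3wk SBI + Lac. Ldha ran the other way at 3 weeks, at 0.27 to 0.38 in 3wk SBI and 0.05 to 0.15 in 3wk SBI + Lac. Aldoa was at 1.98 to 2.12 in 1wk SBI and 2.19 to 2.32 in 1wk SBI + Lac, without overlap, and its 3-week groups met at 2.27 and 2.26. These contrasts within the set were picked after their values were seen and carry no test.

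Pairing each muscle gene with a second isozyme, or transporter, of the same step gives a ratio that library scaling cannot move. Lactating and non-lactating libraries were compared by an exact two-sided permutation test within time points (400 arrangements, smallest p 0.005), with adjustment over 8 pairs. The ratio of Eno3 to Eno1, the enolase of most other cells, had log2 values of 4.70, 4.69 and 5.21 in 1wk SBI and 5.72, 5.62 and 5.46 in 1wk SBI + Lac. At 3 weeks they were 5.56, 5.86 and 5.33 in 3wk SBI and 6.16, 6.18 and 6.18 in 3wk SBI + Lac. Every lactating library was above every non-lactating library of its time. The ratio was 1.58-fold higher with lactation, by 0.66 on the log2 scale (0.73 at 1 week and 0.59 at 3 weeks). Its exact permutation p was 0.005, the smallest this design can give before adjustment, and the adjusted p was 0.04. Leaving out any of the 6 lactating libraries raised the adjusted p to 0.08.

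Eno1 itself stood at 150.5, 117 and 141 normalized CPM in 1wk SBI, at 91.3, 123 and 103 in 1wk SBI + Lac, at 108, 97.3 and 111 in 3wk SBI and at 81.6, 84.0 and 86.9 in 3wk SBI + Lac. Its log2 fold change with lactation was -0.37 (edgeR adjusted p = 0.128) at 1 week and -0.33 (edgeR adjusted p = 0.148) at 3 weeks. Eno1 is also made by cells other than muscle fibers, and their part in the ratio was not tested.

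The other pairs did not pass. Pygm over Pygb was higher by 0.66, Pfkm over Pfkp by 0.67, Hk2 over Hk1 by 0.53, Slc2a4 over Slc2a1 by 0.49 and Pgam2 over Pgam1 by 0.37 on the log2 scale, each with an adjusted exact permutation p of 0.113. Without replicate 2 of 3wk SBI the Pygm, Pfkm and Pgam2 pairs reached an adjusted p of 0.04. Aldoa over Aldoc differed by 0.16 (adjusted exact permutation p = 0.61) and Ldha over Ldhb, the heart-type subunit, by -0.20 (adjusted exact permutation p = 0.291).

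**Figure D4:**
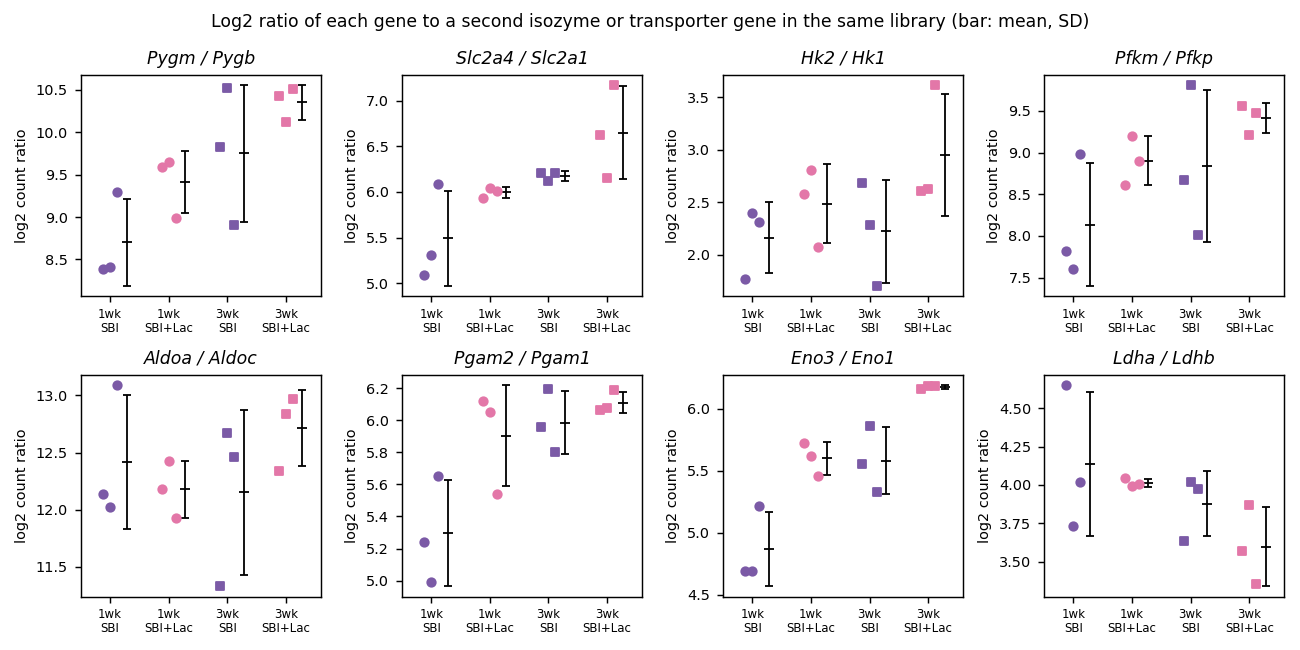
Log2 ratio of counts (y axis) of each muscle gene to a second isozyme or transporter gene in the same library, by group on the x axis, with colors and symbols as in the plot of levels and bars for the mean with SD (n = 3 pools); the y axes do not start at 0 and differ between panels. Eno3 over Eno1 is the pair whose lactating libraries all lie above the non-lactating libraries at both times, with values from 4.69 to 5.21 in 1wk SBI and from 6.16 to 6.18 in 3wk SBI + Lac.

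The surrounding pathway was read over 80 rows in 5 lists. At 1 week edgeR called 0 of 21 other glycogen genes, 0 of 20 other glycolysis genes, 0 of 11 glucose and lactate transport genes, 0 of 14 genes of pyruvate entry into mitochondria and 0 of 14 regulator rows (Prkag1 has 2 identifiers), with 5, 4, 4, 3 and 8 in that order at an unadjusted p under 0.05. That is 0 of 80 where 0.569% of all genes passed, and 24 of 80 where 18.9% of all genes had an unadjusted p under 0.05. Their median log2 fold changes were 0.23, 0.23, 0.23, 0.20 and 0.20. At 3 weeks 1 glycogen gene and 1 transport gene rose, 1 regulator fell, and 0 of the 20 glycolysis and 0 of the 14 pyruvate entry genes passed, with 2 and 0 of them at an unadjusted p under 0.05. The 3 of 80 that passed stand beside 2.54% of all genes, a share near that of the lists. An unadjusted p under 0.05 was found in 9 of 80 at 3 weeks, where 21.1% of all genes had one. The medians at 3 weeks were 0.15 for glycogen, -0.04 for glycolysis, -0.08 for transport, -0.09 for pyruvate entry and 0.01 for regulators.

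The glycogen gene that rose at 3 weeks was Ppp1r3c, a subunit that brings protein phosphatase 1 to glycogen and so favors glycogen synthesis. It stood at 347, 289 and 229 normalized CPM in 3wk SBI and at 709, 599 and 592 in 3wk SBI + Lac. The groups did not overlap, and the difference was 2.20-fold, 1.14 on the log2 scale (SE 0.19, edgeR adjusted p = 0.00934). Without replicate 1 of 3wk SBI + Lac the edgeR adjusted p was 0.0508, and with myofiber scaling the difference was 0.83 (edgeR adjusted p = 0.00507). At 1 week Ppp1r3c stood at 169.5, 162 and 255 in 1wk SBI and at 296, 397 and 325 in 1wk SBI + Lac, also without overlap, with a log2 fold change of 0.79 (SE 0.19, edgeR adjusted p = 0.0614).

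Slc2a12, a glucose transporter, stood at 22.8, 22.7 and 21.6 normalized CPM in 3wk SBI and at 32.8, 32.1 and 33.4 in 3wk SBI + Lac. It rose by 0.55 on the log2 scale (SE 0.13, edgeR adjusted p = 0.0363), a call lost when any of 5 of the 6 libraries was left out (edgeR adjusted p up to 0.123) and with myofiber scaling, where the difference was 0.21 (edgeR adjusted p = 0.383). Hif1a, which encodes the oxygen-regulated subunit of the factor HIF-1 that drives glycolytic genes in hypoxia, stood at 34.9, 33.3 and 42.5 in 3wk SBI and at 30.3, 26.5 and 23.1 in 3wk SBI + Lac. It fell by 0.47 on the log2 scale (SE 0.11, edgeR adjusted p = 0.0439), a call lost when replicate 3 of 3wk SBI or any of the 3 lactating libraries was left out (edgeR adjusted p up to 0.184).

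**Figure D5:**
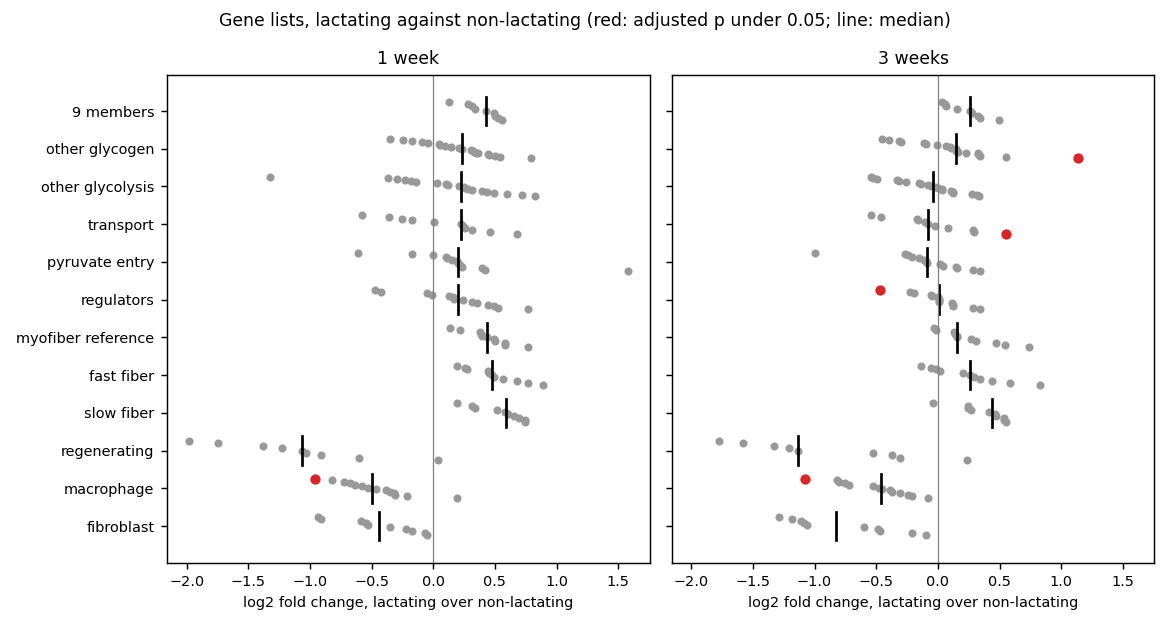
Log2 fold change, lactating over non-lactating (x axis, TMM scaling), of every tested gene of 12 lists (rows) at 1 week (left) and 3 weeks (right); grey points did not pass, red points had an edgeR adjusted p under 0.05 and black lines are list medians. The 9 enzyme and transporter genes lie to the right of 0 at both times with medians of 0.43 and 0.26 (-0.02 and -0.06 with myofiber scaling), next to the myofiber reference genes at 0.43 and 0.16.

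The medians of the fiber type lists lay on the same side of 0 as that of the enzymes. With TMM scaling the 11 fast fiber genes had medians of 0.48 at 1 week and 0.26 at 3 weeks, the 10 slow fiber genes 0.59 and 0.44, and the 11 myofiber reference genes 0.43 and 0.16. In edgeR 0 of these 3 lists' genes passed at either time, with 7, 7 and 5 of them at an unadjusted p under 0.05 at 1 week and 2, 3 and 2 at 3 weeks. Of all genes 0.569% passed at 1 week and 2.54% at 3 weeks, and 18.9% and 21.1% had an unadjusted p under 0.05. Of the other cell types listed, 8 endothelial, 6 adipocyte, 6 smooth muscle and 4 erythroid genes had medians of -0.03, -0.0010, -0.04 and 1.26 at 1 week and of -0.07, 0.10, 0.18 and 0.40 at 3 weeks, and 0 of them passed. Summed erythroid genes did not overlap at 1 week, at 242 to 414 normalized CPM in 1wk SBI and 556 to 779.8 in 1wk SBI + Lac.

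Over time in non-lactating rats 9 of the 80 rows passed, where 5.05% of all genes did, and time and counting again cannot be told apart. An unadjusted p under 0.05 was found in 43 of the 80, where 21.2% of all genes had one. Of 21 other glycogen genes 3 rose and 1 fell from 1 to 3 weeks. Those that rose were Gyg1, the protein primer of glycogen, by 0.62 (edgeR adjusted p = 0.0149), Ppp1r3a, the muscle glycogen-targeting subunit of protein phosphatase 1, by 0.75 (edgeR adjusted p = 0.0155), and Ugp2, which makes the UDP-glucose used for glycogen and was named after its values were seen, by 0.54 (edgeR adjusted p = 0.0358). The gene that fell was Stbd1, a glycogen-binding protein, by 0.61 (edgeR adjusted p = 0.0329). Gpd2, the mitochondrial glycerol phosphate dehydrogenase, rose by 0.92 (edgeR adjusted p = 0.0149) as the 1 of 20 other glycolysis genes that passed. Klf15, a glucocorticoid-responsive regulator of muscle fuel use, rose by 1.13 (edgeR adjusted p = 0.00923) as the 1 of 14 regulators, and Pdha1, a subunit of pyruvate dehydrogenase, rose by 0.54 (edgeR adjusted p = 0.0485) as the 1 of 14 pyruvate entry genes. Of 11 transport genes Tbc1d4, a brake on GLUT4 movement that insulin releases, rose by 0.64 (edgeR adjusted p = 0.0176) and its relative Tbc1d1 fell by 0.66 (edgeR adjusted p = 0.0137).

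Klf15 had its call in each of the 6 fits that left out a library. The others lost theirs without replicate 1 of 1wk SBI or without replicate 2 of 3wk SBI, among others, with edgeR adjusted p up to 0.0851 for Gpd2, 0.194 for Ugp2, 0.0821 for Gyg1, 0.0933 for Ppp1r3a, 0.121 for Stbd1, 0.226 for Pdha1, 0.104 for Tbc1d4 and 0.0821 for Tbc1d1. With myofiber scaling Gyg1, Ppp1r3a, Ugp2, Pdha1 and Tbc1d4 no longer passed, at 0.14, 0.28, 0.06, 0.07 and 0.19 on the log2 scale.

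In lactating rats Ppp1r3c rose from 1 to 3 weeks by 0.90 on the log2 scale (edgeR adjusted p = 0.0303), Stbd1 fell by 0.69 (edgeR adjusted p = 0.0349) and Tbc1d1 fell by 0.63 (edgeR adjusted p = 0.0315). Leaving out single libraries removed the Ppp1r3c call in 5 of 6 cases and the Stbd1 and Tbc1d1 calls in 6 of 6, with edgeR adjusted p up to 0.147, 0.150 and 0.143. These are 3 of the 80 rows, where 2.01% of all genes passed. In edgeR 0 of the 20 other glycolysis, 0 of the 14 pyruvate entry and 0 of the 14 regulator genes passed, with 2, 3 and 1 at an unadjusted p under 0.05. Over the 80 rows 15 had such a p, where 18.1% of all genes did.

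The genes outside all lists whose log2 CPM followed the mean of the 9 most closely over the 12 libraries were Wwp1 (r = 0.983), Ccdc91 (r = 0.983), Fbxo40 (r = 0.979), Smim19 (r = 0.968) and Myom1 (r = 0.967), among 13160 genes compared. Myom1 encodes myomesin of the sarcomere M band, and Fbxo40 is a muscle F-box protein. Those most opposed were Sirpa (r = -0.960), Lamp2 (r = -0.959), Actr2 (r = -0.950), Btg1 (r = -0.949) and Tnfrsf1a (r = -0.947). Sirpa is a receptor of myeloid cells and Lamp2 a lysosomal membrane protein.

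Because the 9 genes moved together, the 250 bases before their transcription starts were read from RefSeq (build GRCr8, gene strand). Windows were at hand for 9 of the 10 genes, Gapdh included, and 11 windows in all. Slc2a4 had none. The E-box CAGCTG, which binds myogenic factors, was in 2 of the 9 genes, Pygm and Pgam2, and in 12.0% of all 33469 windows. The core ACGTG or GCGTG bound by HIF-1 was in 5 genes (Ldha, Pygm, Gapdh, Pfkm and Aldoa) and in 36.7% of all windows. The GC box GGGCGG was in 3 (Ldha, Aldoa and Pkm) and in 30.5% of all windows, and a MEF2 motif was in 1 window of Aldoa and in 2.96% of all. Counts by gene and shares by window are unlike units. Aldoa has 3 windows, with the HIF-1 core and the GC box in 1 of them. Both strands were searched, and where motifs overlap or abut the capitals run together. A GC box and a HIF-1 core abut at the downstream end of the Ldha window.

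Pygm, Pgam2 and Ldha are shown because they hold different motifs: Pygm (chr1:213119555-213119804, + strand) has 2 E-boxes and 2 HIF-1 cores, Pgam2 (chr14:84897875-84898124, - strand) has 2 E-boxes, and Ldha (chr1:106507842-106508091, + strand) has 4 matches to the HIF-1 core and 3 GC boxes. Of these 4 matches 2 are the opposite strands of a single CACGTG. Capitals mark the matches, each on the strand shown or its complement.
Pygm: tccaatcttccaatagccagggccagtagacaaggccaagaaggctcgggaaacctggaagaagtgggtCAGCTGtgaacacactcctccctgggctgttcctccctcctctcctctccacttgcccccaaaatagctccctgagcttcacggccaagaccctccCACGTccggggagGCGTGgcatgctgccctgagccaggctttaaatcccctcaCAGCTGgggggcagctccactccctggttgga
Pgam2: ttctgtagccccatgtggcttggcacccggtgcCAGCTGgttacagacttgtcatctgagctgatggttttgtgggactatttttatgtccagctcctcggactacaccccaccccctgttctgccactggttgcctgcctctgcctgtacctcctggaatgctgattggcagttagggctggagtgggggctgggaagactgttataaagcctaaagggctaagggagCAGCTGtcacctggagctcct
Ldha: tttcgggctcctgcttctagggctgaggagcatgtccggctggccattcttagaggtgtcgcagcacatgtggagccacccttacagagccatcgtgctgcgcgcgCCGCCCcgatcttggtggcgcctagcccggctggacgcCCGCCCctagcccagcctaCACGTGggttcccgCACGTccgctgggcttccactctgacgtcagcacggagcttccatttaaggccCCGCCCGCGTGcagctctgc
Pygm, with both motifs, had the lactation differences of 0.50 and 0.32 given above, Pgam2 had 0.43 and 0.07, and Ldha had 0.31 and 0.03, at 1 and 3 weeks with TMM scaling (Pgam2 and Ldha below 0 with myofiber scaling at both times). Aldoa, without an E-box, had the largest difference of the set at 1 week, 0.56. Eno3 and Hk2, with none of the motifs, had 0.34 and 0.13 at 1 week (below 0 with myofiber scaling). Whether the differences go with the motifs was not tested. A match is a string of letters in a window and was not tested as a binding site.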

How the data were processed

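RNA of 2 rats was pooled per library and sequenced as stranded, poly(A)-selected libraries by the study. The authors deposited one table with raw counts per gene for the 1-week libraries and, in the 3-week columns, deposited estimated counts (read as such from their decimals), which were rounded. Neither is normalized. Salmon is named in the submitters' processing notes without a role or version; the genome build of the counts is not given in the sources used here.

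Counts were fitted with edgeR 4.0.16 in R 4.3.3 (TMM, filterByExpr, robust quasi-likelihood over 12 libraries in 4 groups, Benjamini-Hochberg adjustment, threshold 0.05). DESeq2 1.42.0 was an alternative, with RLE, upper-quartile and reference-gene scaling, other count filters, unrounded values, a block for replicate number and each library left out. Myofiber scaling took the summed counts of the reference genes as library size. The log2 CPM used a pseudocount of 0.5. The edgeR and permutation tests were tested on simulated data.

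The 10 genes and all lists were chosen with earlier results of these data known. Named besides the 10 were, per list and comparison, up to 3 genes with the smallest adjusted p under 0.05, and the 5 genes most and least correlated with the set. Gene lengths were not used, so levels are not compared between genes.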

Additional observations from a re-analysis of the deposited data

How the results depend on the processing

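No gene of the 9 was called by edgeR in any of the 5 comparisons under RLE, upper-quartile or myofiber scaling, scaling by genes outside the muscle lists, either count filter, unrounded 3-week values, the study's added cutoff of 1 on the log2 fold change, the replicate block, or only the libraries compared (not run for the interaction). DESeq2 on the compared libraries called 1 at 1 week, 1 at 3 weeks and 3 over time in lactating rats, and on all 12 libraries 2 over time in non-lactating rats. With myofiber scaling the medians turned to -0.019 at 1 week, -0.061 at 3 weeks, -0.066 over time without and -0.078 with lactation. Single genes turned to -0.019 (Pgam2), -0.11 (Eno3), -0.16 (Pkm), -0.13 (Ldha) and -0.35 (Hk2) at 1 week, to -0.26 (Pgam2), -0.061 (Eno3), -0.27 (Pkm), -0.29 (Ldha), -0.16 (Hk2) and -0.029 (Slc2a4) at 3 weeks, to -0.066 (Pgam2), -0.12 (Eno3), -0.088 (Pkm), -0.20 (Ldha) and -0.45 (Hk2) over time without lactation, to -0.31 (Pgam2), -0.078 (Eno3), -0.19 (Pkm), -0.27 (Hk2) and -0.056 (Slc2a4) over time with lactation, and in the interaction to 0.067 (Aldoa) and 0.045 (Eno3). The cause was not tested.

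Leaving out each library in turn gave 0 to 5 calls among the 9 at 1 week (median 0.26 to 0.65), 0 to 0 at 3 weeks (0.12 to 0.35), 0 to 6 over time without lactation (0.22 to 0.61), 0 to 0 with lactation (0.16 to 0.38) and 0 to 0 in the interaction (-0.45 to -0.026). Directions that turned, with their range, were at 3 weeks Pgam2 (-0.0069 to 0.14), Pkm (-0.024 to 0.21) and Ldha (-0.041 to 0.13), in the interaction Aldoa (-0.32 to 0.094), Eno3 (-0.30 to 0.095), Hk2 (-0.064 to 0.15) and Pygm (-0.44 to 0.010), over time Hk2 without (-0.087 to 0.12) and with lactation (-0.029 to 0.18), and with lactation Pgam2 (-0.069 to 0.15) and Ldha (-0.055 to 0.032). The isozyme differences ranged from 0.60 to 0.75 (Eno3), 0.45 to 0.85 (Pygm), 0.47 to 0.92 (Pfkm), 0.29 to 0.46 (Pgam2), 0.36 to 0.63 (Slc2a4), 0.36 to 0.64 (Hk2), -0.046 to 0.33 (Aldoa) and -0.30 to -0.07 (Ldha).

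Same-numbered libraries hold different rats, and their deviations correlated at -0.31 to 0.32 over 18 pairs, 3 of them over 0.1, so the numbers do not pair the samples. With the replicate block 0 of the 9 were called in each comparison. The Eno3 over Eno1 difference stayed at 0.66, with an adjusted exact permutation p of 0.25. With the block, labels are exchanged only between same-numbered libraries of a time. Every lactating library was above its same-numbered non-lactating library, so this ratio already had the smallest unadjusted p the blocked test can give. The blocked test has too few arrangements to decide whether the difference holds. The genes of the surrounding pathway were put through the same alternatives after their values were seen. Over all comparisons their calls were lost 9 times in edgeR on only the libraries compared and 6 times with the replicate block. Myofiber scaling lost 6 and DESeq2 on the libraries compared lost 1, while RLE and upper-quartile scaling and DESeq2 on all 12 libraries lost none. All genes called, in the order 1 week, 3 weeks, interaction, time without and time with lactation, were 83, 371, 1, 737 and 293 in edgeR and 823, 1075, 15, 1336 and 864 in DESeq2 on all 12 libraries, 1629, 305, 3, 2237 and 313 with myofiber scaling, 13, 178, 2, 450 and 154 with the block, and 158, 355, 2, 688 and 271 without a count filter. On only the libraries compared they were 276, 245, 128 and 1047 in edgeR and 1377, 672, 795 and 1376 in DESeq2, without the interaction. Leaving out 1 library gave 2 to 921, 58 to 526, 1 to 6, 102 to 2083 and 41 to 140.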
